A study of Homo sapiens with 6 samples.

Results

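The 40 genes described here encode proteins of mitosis and of the passage from G2 into mitosis, from the cyclins that drive entry to the proteins that cut the daughter cells apart. They were chosen by symbol, with no measured value in the rule but with earlier results of these data known. All 40 were matched to a gene among the 62260 genes listed for each library. RNA was sequenced from TYK-nu cells, a human ovarian cancer line, as 3 wild-type (WT) libraries and 3 libraries of ZNFX1 knockout cells (ZNFX1 KO). The targeted gene encodes a helicase-like zinc finger protein known for a part in antiviral RNA sensing. Neither group was drug treated, both grew in the same medium, and the labels give every library the same batch. The labels name no KO method, exon or clone, so ZNFX1 loss and any other difference between the KO and WT cells cannot be told apart. Replicates are called biological, but nothing says that they came from separate cultures, so every p-value covers only the spread among these libraries, which may be technical.

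Mitotic genes are transcribed in a wave. They are held down in resting and early cycling cells by the DREAM complex, and later in the cycle they are switched on by B-MYB and FOXM1, which join the same MuvB core. MuvB contacts a short promoter element, the cell cycle genes homology region (CHR), and the factor NF-Y binds CCAAT boxes a short way upstream. The RNA of such genes is therefore abundant in dividing populations and scarce in arrested ones. In bulk RNA a smaller share of dividing cells and less RNA per dividing cell cannot be told apart.

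Promoter windows of 300 bases (250 before and 50 after an annotated start, RefSeq, GRCh38.p14) were found for 33 of the 40 genes, in 43 windows. FOXM1, AURKA, BIRC5, BUB3, TTK, TPX2 and UBE2C had no entry. The 120 bases before the start are shown for 9 genes, read 5′ to 3′ on the strand of the gene. CCNB1, CCNB2, PLK1, CDC20, KIF11 and KIF23 show the arrangement of both elements across the roles described below. NDC80 and KIF4A were the members with the most positive and the most negative difference between the groups. AURKB had no CHR match in either of its windows. Capitals mark the matches to TTTGAA or TTTAAA, the only CHR spellings searched, and to CCAAT. Each was searched on both strands, so that TTCAAA and ATTGG are the same elements on the other strand. TTTAAA reads the same on both strands.
CCNB1 (chr5:69167030-69167149, plus strand): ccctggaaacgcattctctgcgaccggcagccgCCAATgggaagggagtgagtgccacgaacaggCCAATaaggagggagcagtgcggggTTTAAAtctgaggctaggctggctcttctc
CCNB2 (chr15:59105026-59105145, plus strand): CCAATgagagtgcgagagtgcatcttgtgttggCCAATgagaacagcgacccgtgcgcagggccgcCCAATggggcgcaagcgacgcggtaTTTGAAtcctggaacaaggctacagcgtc
PLK1 (chr16:23678769-23678888, plus strand): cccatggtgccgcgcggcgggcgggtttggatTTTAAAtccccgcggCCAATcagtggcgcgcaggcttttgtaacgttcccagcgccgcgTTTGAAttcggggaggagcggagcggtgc
CDC20 (chr1:43358861-43358980, plus strand): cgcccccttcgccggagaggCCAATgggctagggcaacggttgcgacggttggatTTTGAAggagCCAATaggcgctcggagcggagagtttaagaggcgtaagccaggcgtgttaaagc
KIF11 (chr10:92593010-92593129, plus strand): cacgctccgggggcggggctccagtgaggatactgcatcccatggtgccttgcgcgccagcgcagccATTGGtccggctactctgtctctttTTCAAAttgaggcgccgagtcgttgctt
KIF23 (chr15:69414229-69414348, plus strand): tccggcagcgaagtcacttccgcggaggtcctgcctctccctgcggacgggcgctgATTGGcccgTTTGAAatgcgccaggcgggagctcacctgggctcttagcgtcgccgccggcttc
NDC80 (chr18:2571437-2571556, plus strand): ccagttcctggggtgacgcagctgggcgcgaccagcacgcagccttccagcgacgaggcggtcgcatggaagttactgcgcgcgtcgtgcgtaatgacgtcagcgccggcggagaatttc
KIF4A (chrX:70289984-70290103, plus strand): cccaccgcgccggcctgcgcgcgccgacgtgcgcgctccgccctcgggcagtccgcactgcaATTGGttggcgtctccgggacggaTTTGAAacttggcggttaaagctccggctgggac
AURKB (chr17:8210226-8210345, minus strand): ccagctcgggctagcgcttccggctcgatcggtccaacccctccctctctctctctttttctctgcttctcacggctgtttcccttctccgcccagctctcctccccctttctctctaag

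The elements recurred close to the start. CCNB2 carried 3 CCAAT matches and TTTGAA in the printed stretch, with TTTGAA beginning 29 bases before the start, and in CCNB1 TTTAAA began 30 bases before it. PLK1 carried both of the CHR spellings searched. In NDC80 the printed stretch held no match, and a TTTGAA lay across the start itself, beginning 3 bases before it. Among the 43 windows of the members, 34 (79.1%) held TTTGAA or TTTAAA, against 24% of all 35116 windows of the same length. TTTGAA alone was in 62.8% against 15.2%, TTTAAA in 34.9% against 12.2% and CCAAT in 74.4% against 34.6%. Windows with a CHR match and a CCAAT match made up 60.5% of the members' windows and 9.27% of all windows. A CHR match within the 60 bases before the start was in 48.8% against 5.49%. Each match is a match of letters, not a measured binding site, and windows of the same gene can overlap.

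The libraries held 21413002 to 23494771 assigned fragments, of which 19115530 to 21036063 fell on genes. Levels are given in CPM, the fragments of a gene scaled to a common library total after TMM, and a difference between groups as a log2 fold change, ZNFX1 KO against WT, where 1 is a doubling. A gene was called at an adjusted p under 0.05 by edgeR's quasi-likelihood test, with Benjamini-Hochberg adjustment over the 14166 genes tested. ZNFX1 itself was at 130, 208 and 109 CPM in WT 1, 2 and 3 and at 102, 70.4 and 75.1 CPM in the KO libraries (exact permutation p = 0.1, the smallest that 3 against 3 allow), so its mRNA was still present under the KO label. Of 10 ovarian carcinoma markers only the genes WT1, KRT8 and KRT18 passed the filter on low counts, and PAX8 and MUC16 were at 0 to 2 fragments in each library. Of 9 leukocyte markers CD68 and LYZ passed the filter, while PTPRC, CD3D, MS4A1 and NKG7 were at 0 fragments in every library. The summed TPM of that list was 120, 182 and 104 in WT and 110, 81.8 and 89.9 in the KO, nearly all of it CD68, a lysosomal protein, at 170 to 477 CPM with its highest level in WT 2. Of 9 fibroblast markers THY1 passed, at 77.3 to 98.8 CPM, with COL1A1 at 0 to 5 fragments and a summed TPM of 11.5 to 15.9. The part of these markers in the results was not tested.

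All 40 members passed the filter and none was called in either direction (edgeR, adjusted p from 0.192 to 0.889), where 0.268% of all tested genes were called higher and 0.459% lower. DESeq2's Wald test called 1 member, NDC80, where it called 4.09% of all tested genes in either direction. Limma-voom called 0, against 0.536% of all tested genes. At an unadjusted edgeR p under 0.05 there were 5 of the 40 members, against 15.1% of all tested genes. In counts simulated at this size, 29% of 2-fold changes and 94% of 4-fold changes were recovered. The simulation changed genes drawn at random and gave both groups the same spread, while the members spread more widely in WT, as described below. It therefore does not give the recovery for these genes. The largest KO mean among the members, for NDC80, was 214% of the WT mean. Of the 40 differences 39 were positive, against 48.8% of all tested genes. Their median was 0.53 and that of all tested genes -0.01, with a range from -0.29 for KIF4A to 1.09 for NDC80. Without WT 2 the median of the members was 0.24, with 36 positive.

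The WT libraries were far from alike in these genes. Set against each gene's mean over the 6 libraries on the log2-CPM scale, WT 1 held the median member at -0.13, WT 2 at -1.08 and WT 3 at 0.26. The KO libraries held it at 0.29, 0.30 and 0.30. WT 2 was the lowest library in 39 of 40 members, against 26.9% of all tested genes, and the exception was CDC25B, where WT 3 was lowest. Compared with the mean of the other 2 WT libraries, WT 2 held from 31.2% (KIF20A) to 93.5% (CDC25B) of the CPM, with a median of 46.3%. The SD over the libraries of a group was larger in WT than in the KO for all 40 members (59.5% of all tested genes), with a median SD of 0.67 in WT and 0.15 in the KO on the log2-CPM scale.

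**Figure D1:**
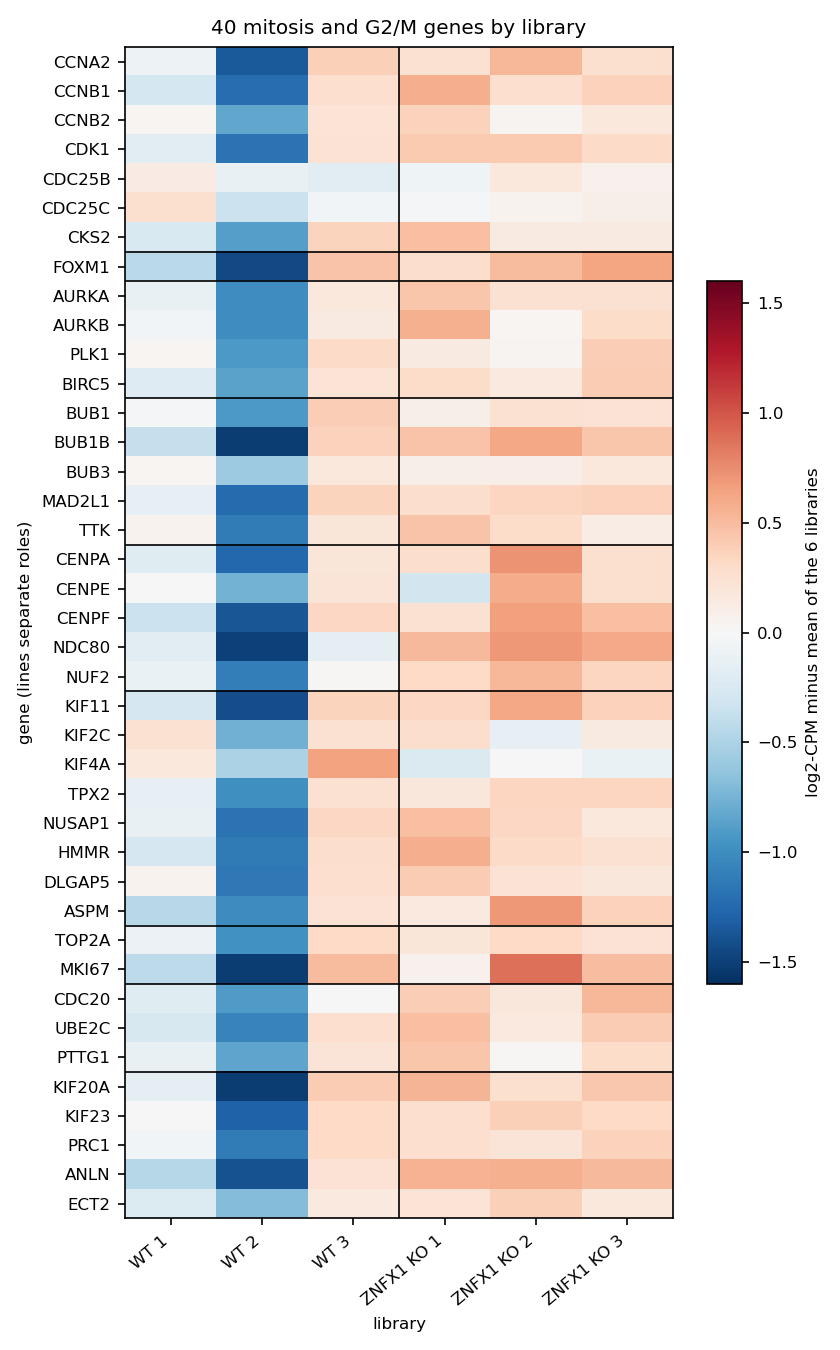
Log2-CPM of the 40 genes minus each gene's mean over the 6 libraries (colour), with genes in rows by role and libraries in columns; the vertical line divides WT from ZNFX1 KO. The WT 2 column is low in 39 of 40 rows, WT 3 resembles the KO columns, and CDC25B, CDC25C and KIF4A depart from the common pattern.

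Each WT library was then placed against the range of the 3 KO libraries. WT 2 lay below that range in all 40 members (34.6% of all tested genes) and WT 1 below it in 35 (30.8%). WT 3 lay below it in 12 (24.2%), within it in 25 (50.5%) and above it in 3 (25.3%), which were BUB1, BUB3 and KIF4A. WT 3 was above WT 1 in 38 members, against 49.4% of all tested genes, the exceptions being CDC25B and CDC25C. The place of WT 3 depended on the scale. On TPM, which divides by transcript length and scales each library to the same total, WT 3 was above the KO range in 18 members. It was within that range in 20 and below it in 2, while WT 2 stayed below it in all 40. Shares of all tested genes were not computed for these places on TPM, so the counts have no background there. The summed TPM of the members was 942, 532 and 1607 in WT 1, 2 and 3 and 1380, 1585 and 1428 in the KO libraries, so on this scale WT 3 had the highest sum.

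In 10 members every KO library was above every WT library (9.39% of all tested genes), namely CCNB1, CDK1, AURKA, BUB1B, CENPA, NDC80, NUF2, CDC20, ANLN and ECT2. No member had every KO library below every WT library (10.8%). With median-of-ratios scaling the same 10 had no overlap (9.78%). With libraries scaled by their totals alone, NDC80, NUF2, CDC20 and ANLN remained (4 members, 6.09% of all tested genes), and on TPM NDC80 and CDC20 (2 members, 5.0%).

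The entry switch comes first in the order of mitosis. CDK1 is the kinase that starts mitosis, cyclins A and B (CCNA2, CCNB1, CCNB2) activate it, CDC25 phosphatases remove its inhibitory phosphates and CKS2 is its small binding partner. CDK1 was at 87.2, 43.2 and 115 CPM in WT 1, 2 and 3 and at 131, 131 and 121 CPM in the KO libraries. The KO libraries were close together and all above WT 3, the highest WT library (log2 difference 0.64, SE 0.31, edgeR adjusted p = 0.371). CCNB1 was at 57.4, 30.1 and 84.5 CPM in WT and at 104, 84.6 and 90.5 CPM in the KO. The groups of CCNB1 were barely apart, since ZNFX1 KO 2 was above WT 3 by less than 1 CPM (0.70, SE 0.33, edgeR adjusted p = 0.354). CCNA2 was at 63.5, 26.5 and 87.9 CPM in WT and at 79.9, 97.3 and 80.3 CPM in the KO, with WT 3 inside the KO range. CCNB2 was at 48.6, 26.7 and 55.5 CPM in WT and at 61.3, 49.1 and 53.7 CPM in the KO. The groups overlapped through WT 3, while WT 1 was just below the lowest KO library and WT 2 far below it.

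The phosphatases were less low in WT 2, at 93.5% of the mean of the other 2 WT libraries for CDC25B and 72.5% for CDC25C. CDC25B, which acts early on cyclin-CDK complexes at the centrosome, was at 49.1, 41.4 and 39.5 CPM in WT and at 42.9, 50.3 and 47.3 CPM in the KO. CDC25C, which acts with cyclin B-CDK1 in a positive loop, was at 24.6, 16.1 and 19.9 CPM in WT and at 20.2, 21.4 and 21.9 CPM in the KO. The differences were 0.11 (SE 0.17) for CDC25B and 0.07 (SE 0.20) for CDC25C, and the groups overlapped in both genes. CDC25C was highest in WT 1, and without WT 2 its log2 fold change was -0.07. CKS2 was at 47.1, 30.3 and 72.0 CPM in WT and at 78.1, 61.8 and 62.0 CPM in the KO (0.43, SE 0.29).

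FOXM1, the forkhead activator of the mitotic wave, was at 53.6, 26.5 and 98.7 CPM in WT and at 87.4, 102 and 112 CPM in the KO. WT 3 was again within the KO range and WT 2 at 34.8% of the mean of the other 2 WT libraries. FOXM1 had a log2 difference of 0.75 (SE 0.40, edgeR adjusted p = 0.401). MYBL2, which encodes B-MYB and stands in a list of 16 DREAM, MuvB, B-MYB and NF-Y subunits and partners, was at 61.0, 26.1 and 135 CPM in WT and at 116, 109 and 142 CPM in the KO. Over the whole list, MYBL2 included, the median difference was 0.17, 11 of 16 were positive and WT 2 was lowest in 9. None of the 16 was called by edgeR or DESeq2, and 3 (18.8%) had an unadjusted edgeR p under 0.05, against 15.1% of all tested genes. E2F4, the repressor E2F of DREAM, was at 70.2, 90.7 and 95.8 CPM in WT and at 91.0, 81.0 and 100 CPM in the KO.

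The Aurora and Polo kinases had a median difference of 0.52 together with survivin, or 0.27 without WT 2. AURKA, which matures centrosomes and builds spindle poles, was at 107, 58.5 and 131 CPM in WT and at 159, 138 and 138 CPM in the KO, without overlap (0.55, SE 0.28, edgeR adjusted p = 0.381). AURKB, the kinase of the chromosomal passenger complex, was at 50.1, 26.0 and 57.3 CPM in WT and at 76.6, 53.1 and 63.2 CPM in the KO. BIRC5 encodes survivin, a subunit of the same complex, and was at 75.0, 47.8 and 101 CPM in WT and at 106, 96.5 and 115 CPM in the KO. In both of these genes 1 WT library, WT 3, reached into the KO range. PLK1, the Polo kinase of mitotic entry and spindle assembly, was at 55.8, 28.9 and 67.6 CPM in WT and at 60.6, 56.1 and 72.0 CPM in the KO (0.31, SE 0.29), and without WT 2 its log2 fold change was 0.03.

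The spindle checkpoint holds anaphase back until every chromosome is attached. Its 5 members had a median difference of 0.48 (0.17 without WT 2) and ranged from 0.22 for BUB3 to 0.82 for BUB1B. BUB1B encodes BUBR1, a subunit of the inhibitor of the anaphase-promoting complex, and was at 58.5, 26.2 and 97.7 CPM in WT and at 103, 116 and 103 CPM in the KO (SE 0.39, edgeR adjusted p = 0.365). BUB1, the kinetochore kinase that recruits the checkpoint proteins, was at 92.1, 49.8 and 124 CPM in WT and at 100, 112 and 111 CPM in the KO. WT 3 was the highest library for BUB1, and without WT 2 the difference was -0.0035. BUB3, their shared partner, was at 122, 80.1 and 135 CPM in WT and at 128, 129 and 135 CPM in the KO. TTK, the upstream checkpoint kinase, was at 40.0, 17.7 and 43.8 CPM in WT and at 52.7, 47.4 and 41.6 CPM in the KO, and the groups overlapped through ZNFX1 KO 3. MAD2L1, the protein that clasps CDC20, was at 30.9, 14.4 and 43.3 CPM in WT and at 41.4, 43.2 and 44.0 CPM in the KO.

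Among the roles with more than 2 members, centromere and kinetochore genes had the highest median difference, 0.73 (0.44 without WT 2). Groups did not overlap in 3 of the 5, against 9.39% of all tested genes with the KO higher. With libraries scaled by totals NDC80 and NUF2 remained of these 3, and on TPM NDC80 alone. NDC80 and NUF2 form one arm of the NDC80 complex, which grips the microtubule. NDC80 (ENSG00000080986.13, chr18:2571511-2616635, plus strand, GRCh38) was at 32.3, 13.0 and 33.4 CPM in WT and at 52.6, 59.7 and 55.8 CPM in the KO. The lowest KO library was well above the highest WT library, with a WT mean of 26.2 ± 11.5 CPM against 56.0 ± 3.55 CPM (SD, n = 3 each). This was the largest difference among the members (log2 difference 1.09, SE 0.32, edgeR adjusted p = 0.192). Without WT 2 it was 0.77 with an adjusted p of 0.150, in a range of 0.0247 to 0.494 over all alternatives. NDC80 was called with no filter on low counts (edgeR adjusted p = 0.0247, with 0.91% of genes called higher) and by DESeq2's Wald test (adjusted p = 0.0315, with 1.67%). Its partner NUF2 was at 67.9, 33.8 and 74.0 CPM in WT and at 91.1, 105 and 92.8 CPM in the KO (0.72, SE 0.28, edgeR adjusted p = 0.288), also without overlap.

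The other kinetochore members differed in how steady the KO libraries were. CENPA, the centromere's histone H3 variant, was at 19.7, 9.39 and 25.7 CPM in WT and at 27.3, 37.1 and 26.9 CPM in the KO (0.73, SE 0.34). CENPF, a large corona protein, was at 333, 164 and 533 CPM in WT and at 501, 665 and 590 CPM in the KO, with WT 3 within the KO range. CENPE, the kinetochore motor that moves chromosomes to the spindle equator, was at 145, 86.3 and 168 CPM in WT and at 119, 221 and 174 CPM in the KO. The KO libraries of CENPE ran from below WT 1 to above WT 3, which was the widest KO spread of these 5 genes on the log2 scale.

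**Figure D2:**
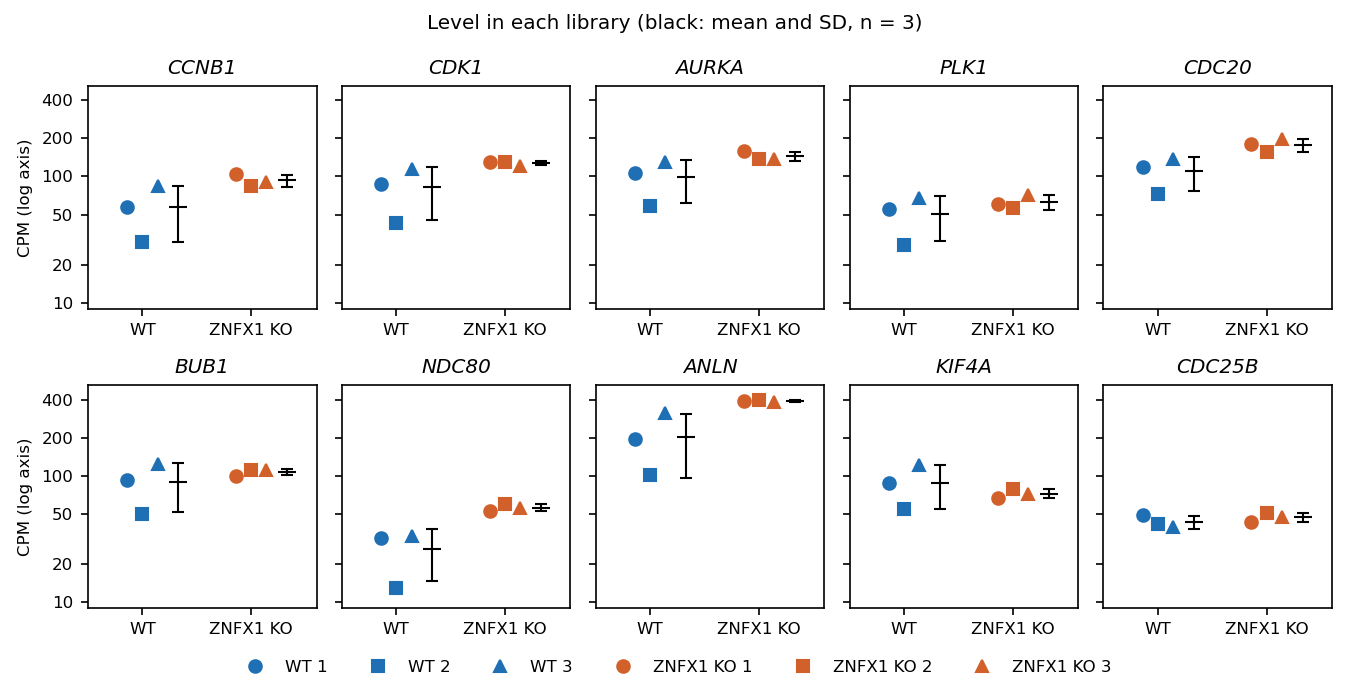
CPM of selected members in each of the 6 libraries, with WT and ZNFX1 KO points and a bar at each group mean. NDC80 and ANLN show KO points above all WT points, WT 2 is the low point of most panels, and KIF4A has its KO points between WT 2 and WT 1.

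None of the 8 spindle motors and microtubule binders had groups without overlap (9.39% of all tested genes with the KO higher). Their median difference was 0.51, or 0.22 without WT 2. KIF4A, a chromosome-bound kinesin that narrows the central spindle, was the only member with a negative difference. KIF4A (ENSG00000090889.12, chrX:70290090-70420832, plus strand, GRCh38) was at 87.6, 54.8 and 122 CPM in WT and at 66.2, 77.9 and 72.2 CPM in the KO. The log2 difference was -0.29 (SE 0.27, edgeR adjusted p = 0.617). Every KO library was below WT 1 and WT 3 and above WT 2. Its value depended on the WT libraries: without WT 2 the difference was -0.54 (edgeR adjusted p = 0.445) and without WT 3 it was 0.04 (adjusted p = 0.936), both inside an adjusted p range of 0.445 to 0.936 over the alternatives. KIF2C, a kinesin that takes microtubules apart, was at 87.3, 43.3 and 87.3 CPM in WT and at 89.8, 67.2 and 81.5 CPM in the KO. The WT 1 and WT 3 values were within the KO range, and without WT 2 the difference was -0.13.

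KIF11, the motor that pushes spindle poles apart, was at 98.9, 44.4 and 152 CPM in WT and at 150, 184 and 154 CPM in the KO (0.73, SE 0.37). TPX2, which activates AURKA on the spindle, was at 295, 164 and 383 CPM in WT and at 367, 409 and 410 CPM in the KO. ASPM, a spindle pole protein with a very long transcript, was at 173, 117 and 275 CPM in WT and at 263, 379 and 304 CPM in the KO (0.74, SE 0.30, edgeR adjusted p = 0.307). In each of these 3 genes WT 3 fell inside the KO range. The microtubule binders NUSAP1, HMMR and DLGAP5 did the same, with WT 2 at 40.3%, 44.8% and 40.2% of the mean of the other 2 WT libraries and differences of 0.53, 0.65 and 0.43.

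TOP2A, the topoisomerase that untangles sister chromatids, was at 365, 198 and 485 CPM in WT and at 445, 487 and 455 CPM in the KO (0.40, SE 0.30). MKI67 encodes Ki-67, which coats mitotic chromosomes and serves as the usual proliferation marker. MKI67 was at 179, 82.9 and 339 CPM in WT and at 251, 439 and 336 CPM in the KO (0.77, SE 0.45, edgeR adjusted p = 0.434). For both genes WT 3 was within the KO range, and the WT libraries ranged more widely than the group means differed.

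The anaphase-promoting complex ends mitosis by marking securin and cyclin B for destruction. CDC20, its activator, was at 120, 72.9 and 138 CPM in WT and at 180, 156 and 198 CPM in the KO, with no overlap on any of the 5 scalings tried (0.69, SE 0.25, edgeR adjusted p = 0.263). UBE2C, its ubiquitin-conjugating enzyme, was at 72.8, 41.5 and 105 CPM in WT and at 121, 97.2 and 115 CPM in the KO. PTTG1, which encodes securin, was at 74.4, 44.8 and 93.2 CPM in WT and at 110, 81.4 and 98.9 CPM in the KO. A list of 17 other genes of the complex held its core subunits with FZR1, UBE2S and FBXO5, which regulate or assist it. WT 2 was lowest in 9 of the 17, the median difference was 0.18 and none was called by edgeR or DESeq2. At an unadjusted edgeR p under 0.05 there were 0, against 15.1% of all tested genes. ANAPC5, a core subunit, was at 153, 106 and 178 CPM in WT and at 145, 101 and 122 CPM in the KO.

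The last role is the central spindle and cytokinesis, with a median difference of 0.50, or 0.26 without WT 2. ANLN encodes anillin, the scaffold of the cleavage furrow, and was at 195, 102 and 315 CPM in WT and at 393, 396 and 383 CPM in the KO. The KO libraries lay within a narrow band above all WT libraries, with a WT mean of 204 ± 107 CPM against 391 ± 6.96 CPM (SD, n = 3 each). The difference was 0.94 (SE 0.35, edgeR adjusted p = 0.280) and 0.62 without WT 2 (adjusted p = 0.462, in a range of 0.0285 to 0.559 over the alternatives). ECT2, the exchange factor that activates RhoA at the furrow, was at 158, 114 and 205 CPM in WT and at 214, 241 and 208 CPM in the KO. PRC1, which bundles the central spindle, was at 87.4, 41.6 and 113 CPM in WT and at 109, 104 and 117 CPM in the KO. The motors KIF20A and KIF23 had WT 2 at 31.2% and 36.0% of the mean of the other 2 WT libraries, and in both WT 3 was within the KO range.

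Each member was also set against the median member of the same library (log2-CPM, centred on each gene's mean), which takes away the shift that the members share. On this relative scale 6 members had every KO library above every WT library (CDK1, BUB1B, CENPA, NDC80, NUF2 and ANLN) and 4 had every KO library below (BUB1, BUB3, KIF4A and TOP2A). After the same subtraction 0.904% of all tested genes were without overlap and higher in the KO and 23.1% lower. These shares are no background for the counts of 6 and 4 members. Genes that do not share the members' shift are raised in WT 2 and lowered in the KO by the subtraction itself. NDC80 was at -0.06, -0.41 and -0.39 in WT 1, 2 and 3 and at 0.23, 0.40 and 0.30 in the KO libraries. KIF4A was at 0.30, 0.58 and 0.39 in WT and at -0.52, -0.29 and -0.40 in the KO, although on the CPM scale its groups overlapped. This scale was added after the data were seen, and NDC80 and KIF4A were chosen for their extreme differences, so the values are a description.

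**Figure D3:**
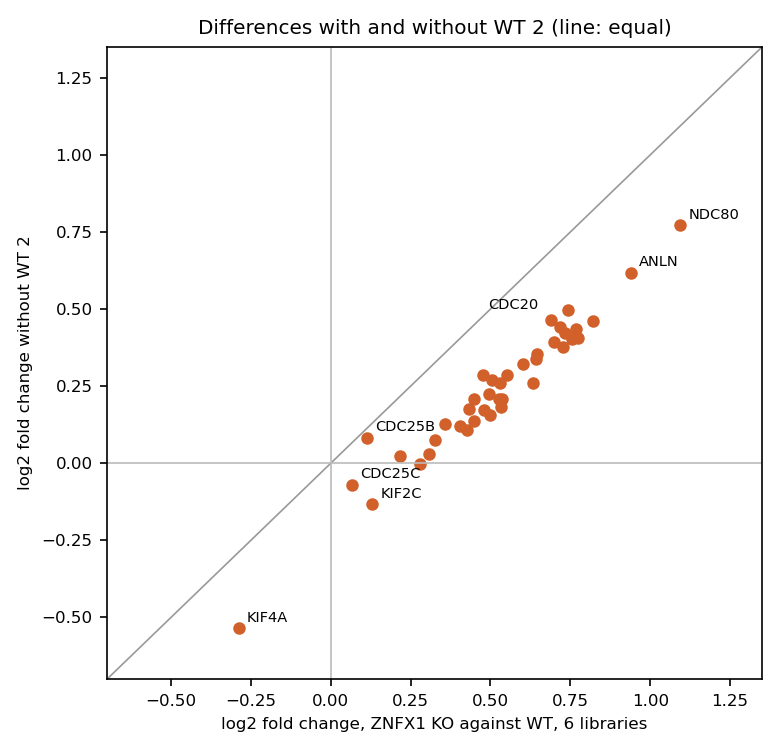
Log2 fold change of each of the 40 genes with all 6 libraries (x axis) and without WT 2 (y axis), with a line where both are equal. All points lie below the line; NDC80 and ANLN stay the highest, and BUB1, CDC25C and KIF2C join KIF4A at or below 0 without WT 2.

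Leaving out a library moved the calls as well as the median. Without WT 3, CCNB1, FOXM1, BUB1B, CENPF, ASPM and ANLN were called higher in the KO (6 members; 4.09% of all tested genes were called higher in that fit), with edgeR adjusted p from 0.0285 for ANLN to 0.0499 for CCNB1. Over all alternatives the adjusted p of CCNB1 ranged up to 0.674 and that of FOXM1 up to 0.738. Without WT 2 none was called, and the differences of CDC25C, BUB1 and KIF2C were negative. Which WT libraries represent the line was not tested.

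Levels can be compared between genes only per length. On TPM, averaged over all libraries, UBE2C (99.0), PTTG1 (98.6) and CKS2 (85.4) were the most abundant members, followed by TPX2 (67.1) and CDC20 (63.0). MAD2L1 (4.71), CDC25C (7.45) and TTK (9.36) were the least abundant. In WT the top 3 were at 79.9 ± 46.5 (UBE2C), 84.2 ± 40.2 (PTTG1) and 73.8 ± 42.2 TPM (CKS2), closer together than their spread (SD, n = 3 each). In the KO UBE2C and PTTG1 were at 118 ± 2.0 and 113 ± 6.13 TPM and within their spread of each other, and CKS2 was lower at 96.9 ± 8.30 TPM. This order covers gene rows only, which for some members leave out part of the reads, as described next.

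How the reads were assigned touched several members. The deposited files list some transcripts on rows of their own, and those reads are not in the gene's value. For CCNB1 the gene row held 36.8% of its reads, and the protein-coding transcript ENST00000506572.5 held 57.96%, with 1999, 1027 and 3073 fragments in WT and 3016, 2440 and 2853 in the KO. With all its transcripts joined, CCNB1 was at 151, 81.2 and 230 CPM in WT and at 237, 191 and 228 CPM in the KO (scaled by library totals), with WT 3 inside the KO range. Under that scaling its gene row alone overlapped as well. The log2 fold change after joining was 0.57 (edgeR with TMM, adjusted p = 0.396). The gene row of MAD2L1 held 58.5% of its reads, that of BUB1 72.7% and that of CENPA 76.4%, and the TPM levels and ranks of these 4 genes, CCNB1 most of all, are therefore incomplete.

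Some transcript values jumped between libraries of 1 group. ENST00000472719.5 of CENPA was at 115 and 125 fragments in ZNFX1 KO 1 and 3 and at 0 in ZNFX1 KO 2, the library in which the gene row of CENPA was highest. Joined, CENPA was at 33.4, 35.7 and 33.2 CPM in the KO and at 26.3, 13.0 and 32.5 CPM in WT. ENST00000519078.6 of CDK1 was likewise at 211 and 203 fragments in ZNFX1 KO 1 and 3 and at 0 in ZNFX1 KO 2. After joining, the KO libraries of CENPA lay closer together than in the gene row. With libraries scaled by totals, 6 members (CDK1, CENPA, NDC80, NUF2, CDC20 and ANLN) had every KO library above every WT library after joining (6.25% of all tested genes), against 4 before it under the same scaling.

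The KO libraries also differed by transcript length. Between ZNFX1 KO 2 and ZNFX1 KO 1, the log2-CPM difference of a member and its effective length had a Spearman correlation of 0.64 across the 40 genes, which share these libraries. For all 14166 tested genes it was 0.31. The 4 members longer than 8000 bases, CENPE, ASPM, CENPF and MKI67, were all higher in ZNFX1 KO 2, by a median of 0.67. Among all 578 tested genes of that length 77.0% were higher in ZNFX1 KO 2, with a median of 0.27. The 10 shortest members had a median of -0.26, and 3 of them were higher in ZNFX1 KO 2. Length therefore moved with the spread of CENPE and MKI67 in the KO, and its part in any difference between the groups was not tested.

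**Figure D4:**
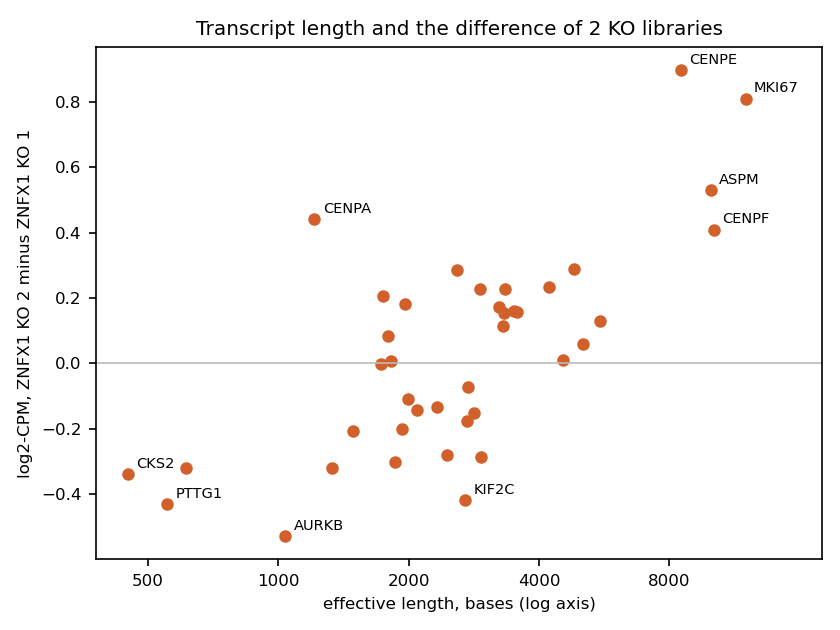
Effective transcript length of the 40 genes (x axis, bases, log axis) against the log2-CPM difference between ZNFX1 KO 2 and ZNFX1 KO 1 (y axis). The 4 members over 8000 bases all lie above 0, and short members such as CKS2, PTTG1 and AURKB lie below 0; CENPA, also short, is an exception at 0.44.

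Members with and without a match to each promoter element were set side by side as a description. Only the CHR spellings TTTGAA and TTTAAA were searched, so a gene without a match may still hold the element in other letters. Matches could also lie after the start, as in NUF2, MAD2L1 and CDC25B (16, 24 and 32 bases). The 30 genes with a CHR match and the 3 without one (AURKB, BUB1 and CCNA2) both had a median log2 fold change of 0.53. The 27 genes with a CCAAT match had a median of 0.53 and the 6 without (ANLN, BUB1B, CENPE, KIF2C, NDC80 and NUF2) a median of 0.77. ANLN and NDC80, the members with the largest differences, were among those 6, and so was KIF2C, at 0.13. WT 2 was low with and without these matches, with a median of -1.12 in genes with a CHR match and -0.99 in the 3 without. The median was -1.12 with and -1.25 without a CCAAT match.

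Other genes of the cell cycle shared the placement of WT 2, in lists that were also chosen with earlier results of these data known. In a further list of 60 mitotic genes, WT 2 was lowest in all 60, and 57 differences were positive with a median of 0.44. None of the 60 was called by edgeR or DESeq2, and 5 (8.33%) had an unadjusted edgeR p under 0.05, against 15.1% of all tested genes. Without WT 2 their median was 0.17 with 47 positive. KPNA2, an importin that carries mitotic regulators, was at 266, 158 and 369 CPM in WT and at 313, 262 and 269 CPM in the KO, while CKS1B was at 135, 84.5 and 143 CPM in WT and at 214, 154 and 198 CPM in the KO. In 17 condensin and cohesin genes, which fold and hold chromosomes, WT 2 was lowest in 12 and the median difference was 0.43, or 0.22 without WT 2. SMC4, a condensin ATPase with the most positive difference of the 17 (0.62), was at 188, 132 and 311 CPM in WT and at 302, 386 and 283 CPM in the KO. RAD21, the gene of highest TPM in the list, was at 521, 353 and 488 CPM in WT and at 474, 489 and 418 CPM in the KO. Its difference was 0.02, or -0.13 without WT 2. None of the 17 was called by edgeR or DESeq2, and 0 had an unadjusted edgeR p under 0.05, against 15.1% of all tested genes.

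In DNA replication genes, which act earlier in the cycle, the median SD was 1.08 in WT and 0.148 in the KO on the log2-CPM scale, beside 0.67 and 0.149 for the mitotic genes. All 30 were positive with a median of 0.70, and the median gene was at -1.6 in WT 2 and 0.66 in WT 3. Without WT 2 the median difference was 0.30 and 26 were positive. None was called by edgeR and 1 by DESeq2, which called 4.09% of all tested genes. At an unadjusted edgeR p under 0.05 there were 2 (6.67%), against 15.1% of all tested genes. PCNA, the sliding clamp of DNA polymerases, was at 47.5, 22.6 and 148 CPM in WT and at 146, 160 and 169 CPM in the KO. WT 3 was above the KO range in 12 of the 30 replication genes (40.0%) and in 3 of the 40 members (7.5%), against 25.3% of all tested genes. In the further list of 60 mitotic genes it was above that range in 19 (31.7%), so the low count of the members was not shared there. Of 17 tested brakes and CDK inhibitors, WT 2 was lowest in 9 and highest in 6, and the median difference was 0.06. In that list none was called by edgeR and 1 by DESeq2 (4.09% of all tested genes). At an unadjusted edgeR p under 0.05 there were 5 (29.4%), against 15.1% of all tested genes. ENSA and ARPP19, which with CDKN1A had the highest TPM in the list, were lowest in WT 2, each with a log2 difference of 0.35. CDKN1A, which encodes the inhibitor p21, ran the other way at 112, 141 and 63.9 CPM in WT and 57.7, 69.1 and 77.1 CPM in the KO, with its highest level in WT 2 (log2 difference -0.64, SE 0.28, edgeR adjusted p = 0.331).

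Interferon-stimulated genes were placed opposite to the mitotic genes across the WT libraries. Of 29 tested, 28 were highest in WT 2, where the median was 1.72, and all 29 differences were negative. In this list 1 gene, CXCL11, was called lower in the KO (log2 difference -2.74, SE 0.27, edgeR adjusted p = 0.0064). DESeq2 called 3 of the 29, against 4.09% of all tested genes. At an unadjusted edgeR p under 0.05 there were 16 of the 29 (55.2%), against 15.1% of all tested genes. The median difference of the list was -1.20, and without WT 2 it was -0.38 with 6 of 29 positive. ISG15, a ubiquitin-like protein, was at 84.7, 375 and 76.7 CPM in WT and at 76.0, 28.5 and 43.0 CPM in the KO. WT 2 thus held the lowest mitotic levels, the highest interferon-stimulated levels and the highest ZNFX1. Whether these are linked was not tested. Of 7 tested G1 regulators, WT 2 was lowest in 3, the median difference was 0.29 and none was called by edgeR or DESeq2. At an unadjusted edgeR p under 0.05 there were 2 of the 7 (28.6%), against 15.1% of all tested genes. Their median SD was 0.27 in WT and 0.20 in the KO on the log2-CPM scale, with CCND1, the D-type cyclin, at 374, 308 and 323 CPM in WT and at 411, 539 and 509 CPM in the KO.

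**Figure D5:**
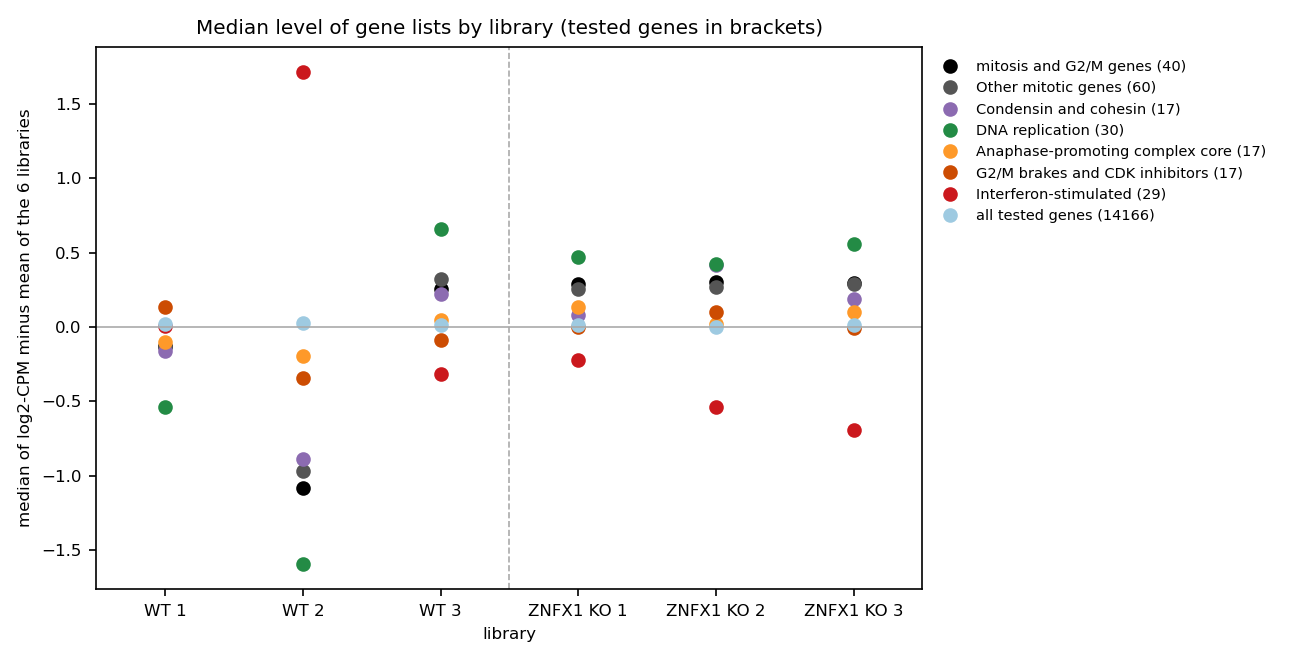
Median log2-CPM of each gene list minus the mean of the 6 libraries, by library, with one colour per list; the number of tested genes is in brackets in the legend. In WT 2 the mitotic list is at -1.08 and DNA replication at -1.6 while interferon-stimulated genes are at 1.72; all tested genes stay near 0 in every library.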

How the data were processed

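RNA of 3 WT and 3 ZNFX1 KO samples was sequenced from stranded total RNA libraries, per the labels, and groups were taken from the sample titles. Salmon was run by the authors, per the labels, and gave the estimated counts and the TPM deposited for each gene, beside effective lengths. The submitters' processing notes also name FastQC, Trimmomatic and DESeq2, without roles. The authors' genome build is not given in the sources used here. Each file lists 62260 genes and 134909 transcripts not joined to a gene. The transcripts held 9.93% to 10.7% of the fragments and were left out, except where they are said to be joined through GENCODE 29 (GRCh38), from which gene coordinates were taken.

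Estimated counts were rounded, filtered by filterByExpr (14166 genes), scaled by TMM (factors 0.958 to 1.04) and tested with edgeR 4.0.16 in R 4.3.3 (glmQLFit, glmQLFTest, two-sided, genotype only, Benjamini-Hochberg over all tested genes). Each standard error is the size of the log2 difference over the square root of F. The prior count of log2-CPM was 2 and the common biological coefficient of variation 0.262. The test was tried on simulated counts (14023 genes; 12 false calls among 135). Alternatives used limma 3.58.1, DESeq2 1.42.0, other scalings and filters, and leaving out each library; the placement of the libraries under other scalings and the count of positive members under each alternative were added after the data were seen. All library pairs differed beyond sampling noise (lowest chi-square/df 31.2). No column of per-sample values was left unmapped.

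All 40 members are named, with ZNFX1. From other lists a gene is named when called, or otherwise at most the 3 with the highest TPM; single markers and FZR1, UBE2S and FBXO5 were named after their values were seen. Members and lists were chosen with earlier results of these data known. Promoter sequences come from RefSeq.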

Additional observations from a re-analysis of the deposited data

How the results depend on the processing

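Over 17 alternatives the 680 member values kept direction and side of the threshold in 668 cases. In 8 cases a member was called: NDC80 with no filter and by DESeq2's Wald test (1 member called in each), and 6 members without WT 3, so that leaving out 1 library gave 0 to 6 called members. The 4 reversals were CDC25C, BUB1 and KIF2C without WT 2 and KIF4A without WT 3. With 1 library left out, the log2 fold change ranged from -0.069 (without WT 2) to 0.237 for CDC25C, from -0.0035 (without WT 2) to 0.617 for BUB1, from -0.133 (without WT 2) to 0.300 for KIF2C and from -0.536 to 0.036 (without WT 3) for KIF4A. The median of the members ranged from 0.24 without WT 2 to 0.84 without WT 3. Genes called among all tested, 103 in the report, numbered 602 with no filter, 579 by DESeq2, 22 by limma on log2(TPM + 1), 187 with transcripts joined, and 2 (without ZNFX1 KO 2) to 1315 (without WT 3) when 1 library was left out. The cause was not tested. ZNFX1 was called without WT 3 (log2 fold change -1.01, edgeR adjusted p = 0.0468), in a range of -1.03 to -0.53 over single libraries left out.

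With the replicate number as a block, 14 genes and 0 members were called, and the median of the members was 0.63. Deviations of same-numbered libraries correlated at 0.129, -0.041 and 0.0069, too low to pair them. Depth was similar in all libraries. Recovery of 2-fold changes was 29% in a simulation with the same spread in both groups, which the members do not have. A member not called may still differ by the size of its estimate.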
